A study of Homo sapiens with 24 samples.

Results

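The 10 genes described here encode the enzymes that make, desaturate, elongate and activate fatty acids: *FASN*, *ACACA*, *ACLY*, *ACSS2*, *SCD*, *FADS1*, *FADS2*, *ELOVL5*, *ELOVL6* and *ACSBG1*. Members were chosen by gene symbol, through the RefSeq transcript that the array design gives for each probe, and all 10 were found. They were carried by 14 of the 58118 probes with a value on every array, and 13 of these probes were tested among 22970. The 10 genes thus stood among 14235 tested genes with a symbol. The second *ACSBG1* probe was well above background on 0 of 24 arrays and was not tested.

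Fatty acid synthesis starts from cytosolic acetyl-CoA, which *ACLY* makes from citrate and *ACSS2* from acetate. Acetyl-CoA carboxylase (*ACACA*) turns it into malonyl-CoA, the committed step, and fatty acid synthase (*FASN*) builds palmitate from both. Elongases lengthen the chain, *SCD* places the first double bond in saturated chains, and *FADS1* and *FADS2* desaturate polyunsaturated chains. Acyl-CoA synthetases, such as *ACSBG1* of brain and steroidogenic tissue, activate free fatty acids for further use. Many of these genes are known targets of the SREBP transcription factors, and glioblastoma (GBM) cells are known for active lipid synthesis.

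Gene expression was measured in U251, an established human GBM cell line, after exposure to G-1, an agonist of the G protein-coupled estrogen receptor GPER. The 6 groups of 4 replicates were DMSO 0.1% (the vehicle, as the labels give its concentration), G-1 1 µM, and G-1 at its IC50 (a lower dose, called G-1 IC50), each for 24 h and for 72 h. All groups had been deprived of steroid hormones in charcoal-stripped serum before treatment, and the labels name the replicates as independent biological ones. One line was used, so the values describe U251 cells. In 2 groups, the 24 h group of G-1 IC50 and the 72 h group of the higher dose, 1 label entry gave the other duration, and the titles and source names were followed. Total RNA was hybridized to 24 one-colour arrays.

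Slide 3, scanned in session 2, carried the 8 arrays of the higher dose and no others. The vehicle and the lower dose shared the remaining slides. At 1 duration, the higher dose and the session thus cannot be told apart. Spots well above background made up 38.0% to 40.7% of each array in session 2 and 41.1% to 44.5% in the first. Replicates correlated with r between 0.99 and 0.996 over the tested probes. Of 10 astroglial and glioma markers, 9 were well above background on all 24 arrays, and *AQP4* was on none. *PTPRC*, *AIF1*, *PECAM1*, *CLDN5*, *ADIPOQ*, *PLIN1* and *LEP*, markers of blood cells, microglia, endothelium and adipocytes, were on none either. Of 4 neuron markers, 3 were on all arrays, as were 2 of 4 of microglia and blood (*CD14* and *CSF1R*), and 1 of 4 each of oligodendrocytes and adipocytes. A lower level in such bulk RNA cannot tell fewer expressing cells from less RNA per cell.

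Promoter windows of RefSeq (GRCh38.p14; 250 bases before and 50 after a start) were given for 9 of the 10 genes, in 14 windows; *FASN* had none. The 4 motifs searched on both strands were the core of the sterol regulatory element (TCACNCCAC), the NF-Y box (CCAAT), the E-box (CACGTG) and the Sp1 box (GGGCGG). NF-Y boxes occurred in 9 of the 14 windows and 7 of the 9 genes, against 34.6% of 35116 windows in all. Sp1 boxes occurred in 10 windows and 7 genes, against 45% of windows. These percentages are shares of windows, and no share of genes was computed. The windows of *ACLY* overlap each other, as do those of *FADS2*, so boxes there can be counted more than once. The E-box was found in 1 window, that of *ELOVL5*, against 7.26%. The letters of the sterol element core were in none of the 14 windows and in 1.13% of all windows. The bases before 4 starts are shown because these genes had different expression patterns. At 24 h, *FADS1* passed the test as higher at both doses and *ELOVL5* with G-1 1 µM only, and *SCD* did not pass the test in the 9 comparisons. At 72 h, *ACSBG1* lay above DMSO with G-1 IC50 and below it with G-1 1 µM. Capitals mark the motif matches, written on the gene's own strand, so a match on the other strand reads ATTGG for CCAAT and CCGCCC for GGGCGG.
*FADS1*, chr11:61817004-61817253, minus strand: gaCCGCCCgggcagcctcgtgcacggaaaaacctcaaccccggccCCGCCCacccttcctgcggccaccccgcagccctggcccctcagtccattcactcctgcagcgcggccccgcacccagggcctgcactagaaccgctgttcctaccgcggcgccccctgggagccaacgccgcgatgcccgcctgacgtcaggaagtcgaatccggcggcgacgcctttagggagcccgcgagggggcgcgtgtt
*ELOVL5*, chr6:53348951-53349200, minus strand: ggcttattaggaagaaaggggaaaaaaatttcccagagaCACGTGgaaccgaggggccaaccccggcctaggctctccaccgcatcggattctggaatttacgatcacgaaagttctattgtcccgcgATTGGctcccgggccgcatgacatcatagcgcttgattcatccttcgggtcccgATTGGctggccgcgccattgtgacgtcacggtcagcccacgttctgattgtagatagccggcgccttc
*SCD*, chr10:100346983-100347232, plus strand: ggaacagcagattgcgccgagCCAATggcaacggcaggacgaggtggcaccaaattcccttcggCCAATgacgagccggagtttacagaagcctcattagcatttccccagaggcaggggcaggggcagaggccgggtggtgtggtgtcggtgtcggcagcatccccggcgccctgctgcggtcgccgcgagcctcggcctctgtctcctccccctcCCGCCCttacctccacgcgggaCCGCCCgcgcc
*ACSBG1*, chr15:78234566-78234815, minus strand: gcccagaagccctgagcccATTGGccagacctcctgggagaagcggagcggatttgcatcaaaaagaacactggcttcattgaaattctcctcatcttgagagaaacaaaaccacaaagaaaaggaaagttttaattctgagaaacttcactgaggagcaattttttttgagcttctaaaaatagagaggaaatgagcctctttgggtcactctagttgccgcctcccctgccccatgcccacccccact
These stretches held 2 Sp1 boxes for *FADS1*, 2 NF-Y boxes and 1 E-box for *ELOVL5*, 2 NF-Y and 2 Sp1 boxes for *SCD*, and 1 NF-Y box for *ACSBG1*. A match describes the letters and does not show binding. *FADS1* (chr11:61799627-61817003, minus strand) and *FADS2* (chr11:61816203-61867354, plus strand) are neighbours whose annotated bounds share 801 bases.

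Levels are given as the log2 intensity of the brightest probe of a gene minus the 75th percentile of its array. They compare groups for 1 gene but not different genes, since probes differ in brightness. A gene was called when the Benjamini-Hochberg adjusted p of limma, over all 22970 probes, was below 0.05.

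**Figure D1:**
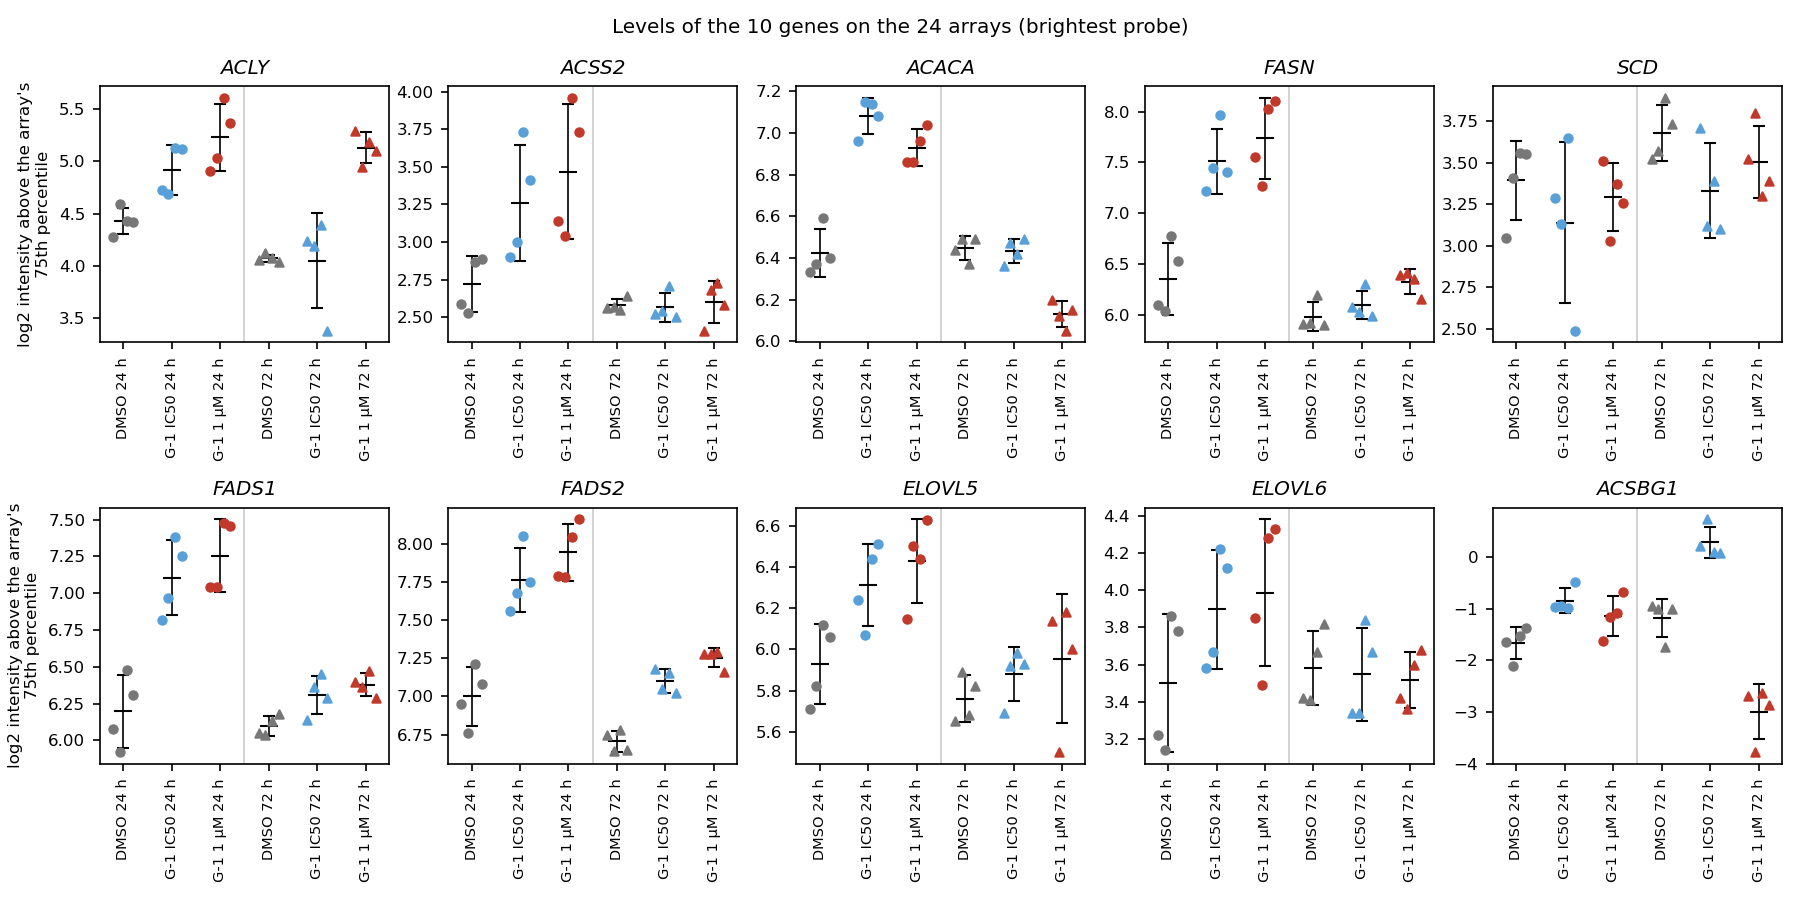
Level of each gene (y axis, log2 intensity above the 75th percentile of the array) on the 24 arrays, by treatment group (x axis). Points are single arrays (circles 24 h, triangles 72 h), and bars give the mean and SD of 4 replicates. Each gene has its own y axis. *FASN*, *FADS1* and *FADS2* sat above DMSO on all 8 G-1 arrays at 24 h, and *ACSBG1* lay highest with G-1 IC50 and lowest with G-1 1 µM at 72 h.

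To describe the effect of the lower dose, G-1 IC50 was first compared with DMSO at 24 h. Here 4 of the 10 genes were upregulated (*FASN*, *FADS1*, *FADS2* and *ACACA*) and 0 were downregulated. Of all tested genes, 0.246% were called in either direction, 0.218% as higher and 0.0281% as lower. The median difference of the 10 genes was 0.60 log2, against -0.0132 over all tested genes. For 7 of the 10, every G-1 IC50 array lay above every DMSO array, which was so for 1.58% of all genes.

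*FASN*, the palmitate-building enzyme, was at 6.09, 6.03, 6.77 and 6.53 in the 4 DMSO replicates and at 7.22, 7.45, 7.97 and 7.41 with G-1 IC50. No array of one group reached the other, and the difference was 1.16 log2 (SE 0.183, 2.23-fold, limma adjusted p = 0.00337). It was the only one of the 4 with a fold change above 2, which 0.0632% of all genes reached as higher.

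*FADS1*, the delta-5 desaturase, rose from 6.08, 5.92, 6.48 and 6.31 to 6.82, 6.97, 7.38 and 7.25. Its neighbour *FADS2*, the delta-6 desaturase, rose from 6.95, 6.76, 7.21 and 7.08 to 7.56, 7.68, 8.05 and 7.75. Both moved without overlap, by 0.91 log2 (SE 0.131, limma adjusted p = 0.00116) and 0.76 log2 (SE 0.104, limma adjusted p = 0.000685). *ACACA*, the carboxylase of the committed step, had the smallest spread of the 4, and rose from 6.33, 6.37, 6.59 and 6.40 to 6.96, 7.15, 7.14 and 7.08. The difference was 0.66 log2 (SE 0.0655, 1.58-fold, limma adjusted p = 1.16e-05), and its second probe gave 0.64.

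The other 6 genes did not pass the test at this dose. *ACLY* (0.49 log2), *ACSS2* (0.54) and *ACSBG1* (0.82) had G-1 IC50 arrays wholly above the DMSO arrays, with 95% intervals of 0.12 to 0.86, 0.17 to 0.91 and 0.31 to 1.34. *ELOVL5* and *ELOVL6*, which elongate polyunsaturated and saturated chains, both differed by 0.39, with overlapping groups. *SCD*, the stearoyl-CoA desaturase, was at 3.05, 3.41, 3.56 and 3.55 in DMSO and at 3.29, 3.13, 3.65 and 2.49 with G-1 IC50. Its groups overlapped, and the difference of -0.25 had an interval of -0.65 to 0.15.

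The 4 calls relied on the spread shared by all 24 arrays: a fit on the 8 arrays of this comparison alone gave the same differences but called 0 genes, with adjusted p between 0.0899 and 0.213 for these 4. The slides held 2 arrays of G-1 IC50 each, with 3 DMSO arrays on slide 1 and 1 on slide 2. Within slide 1 and slide 2, the differences were 1.25 and 1.29 for *FASN*, 0.89 and 1.12 for *FADS1*, 0.78 and 0.90 for *FADS2*, and 0.71 and 0.65 for *ACACA*.

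With G-1 1 µM at 24 h, 7 of the 10 genes were upregulated and 0 downregulated, against 20% of all tested genes called as higher and 10.5% as lower (30.6% in all). The 7 were *FASN*, *FADS1*, *FADS2*, *ACLY*, *ACSS2*, *ACACA* and *ELOVL5*, from acetyl-CoA supply through elongation. The median of the 10 genes was 0.64 log2, against 0.0361 over all genes. The arrays of 7 genes lay wholly above DMSO, as did those of 19.5% of all genes. The split of calls over all probes moved with scaling: 60.2% of the called probes were higher, but 38.7% when arrays were scaled to the 50th percentile.

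*FASN* was at 7.55, 7.27, 8.03 and 8.11, and rose by 1.39 log2 (SE 0.183, 2.61-fold, limma adjusted p = 3.54e-05). *FADS1*, at 7.04, 7.04, 7.48 and 7.46, rose by 1.06 (SE 0.131, 2.08-fold), and *FADS2*, at 7.79, 7.78, 8.04 and 8.16, by 0.94 (SE 0.104, 1.92-fold). *FASN* and *FADS1* were the 2 genes above a fold change of 2, a level that 0.513% of all genes reached as higher.

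The enzymes of acetyl-CoA supply were called at this dose. *ACLY* rose from 4.28, 4.59, 4.43 and 4.42 to 4.91, 5.03, 5.61 and 5.37, by 0.80 log2 (SE 0.176, limma adjusted p = 0.0023). *ACSS2* rose from 2.59, 2.53, 2.87 and 2.89 to 3.14, 3.04, 3.96 and 3.73, by 0.75 log2 (SE 0.177, limma adjusted p = 0.00389). Neither gene overlapped with DMSO. *ACACA*, at 6.86, 6.86, 6.96 and 7.04, rose by 0.51 log2 (SE 0.0655).

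*ELOVL5* was at 6.15, 6.50, 6.44 and 6.63, against 5.71, 5.82, 6.12 and 6.06 in DMSO, a rise of 0.50 log2 (SE 0.139, limma adjusted p = 0.0105). This call was lost when arrays were scaled to the 50th percentile (0.42, adjusted p = 0.116) and with normexp background correction (0.38, adjusted p = 0.0606). *ELOVL6* differed by 0.48 (limma adjusted p = 0.0714) with overlapping groups. *SCD* was at 3.51, 3.03, 3.37 and 3.26, which overlapped with DMSO, and its difference was -0.10 (interval -0.50 to 0.30). *ACSBG1* differed by 0.53 (interval 0.02 to 1.05, limma adjusted p = 0.11).

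Arrays of the same replicate number deviated together in this comparison (r between 0.17 and 0.28 over the tested probes). For *FASN*, replicates 3 and 4 were the higher ones in both groups, and the differences within numbers were 1.46, 1.24, 1.27 and 1.57. *ELOVL6* differed by 0.63, 0.34, 0.41 and 0.55 within numbers, and passed the test with the replicate block (limma adjusted p = 0.000634). It also passed without DMSO 24 h replicate 3 (0.60, adjusted p = 0.0393) or without G-1 1 µM 24 h replicate 2 (0.65, adjusted p = 0.022).

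**Figure D2:**
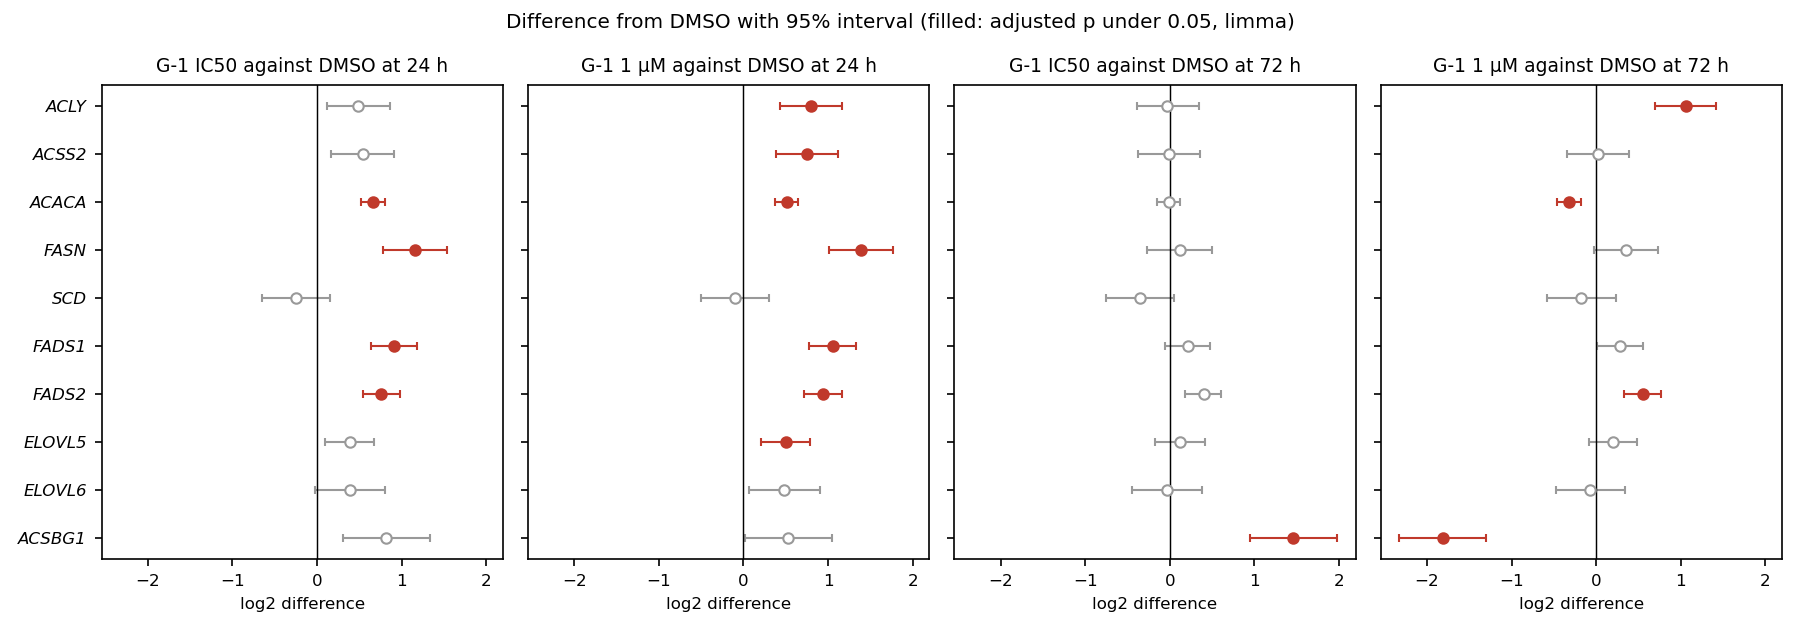
Log2 difference from DMSO of the same duration (x axis) for each gene (y axis) at each dose and duration, with 95% intervals from limma; filled points had an adjusted p under 0.05. At 24 h, 9 of 10 differences were above 0 at both doses and that of *SCD* was below, whereas at 72 h few genes stood off 0 with G-1 IC50.

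The doses were then compared with each other at 24 h. Called genes among the 10 numbered 0 in limma, against 26.5% of all tested genes. At an unadjusted p under 0.05 there was 1, and by the methods' t-test with a fold change above 2 there were 0. No share of all genes was computed for these 2 rules. *FASN* differed by 0.23 (interval -0.15 to 0.61), *FADS1* by 0.15 (-0.13 to 0.42) and *FADS2* by 0.18 (-0.03 to 0.40). Within the 4 numbered pairs, *ACLY* (0.18 to 0.48), *ACSS2* (0.04 to 0.32) and *FADS1* (0.06 to 0.22) were higher at 1 µM in 4 of 4, and *ACSBG1* (-0.66 to -0.10) and *ACACA* (-0.29 to -0.04) lower in 4 of 4. How many of all genes had such pairs was not computed. Every pair also set an array of the later scan session against one of the first, so dose and session cannot be told apart here. The mean difference of *ACACA* was -0.15 (interval -0.29 to -0.01, limma adjusted p = 0.0931). The 3 other scalings called it, with values between -0.32 and -0.23, and so did normexp background correction (-0.35) and the fit without G-1 IC50 24 h replicate 1 (-0.19, adjusted p = 0.0484). *FADS2* passed with the replicate block within each duration (adjusted p = 0.04) and without G-1 IC50 24 h replicate 3 (0.28, adjusted p = 0.0493). Intervals of this width do not show that the doses acted alike on these genes.

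At 72 h, G-1 IC50 left 1 of the 10 genes called, *ACSBG1*, against 0.906% of all tested genes. The median of the 10 genes was 0.05 log2, and 5 were above and 5 below 0. The groups did not overlap for 2 genes, *ACSBG1* and *FADS2*, both higher, as for 2.66% of all genes. *ACSBG1*, the acyl-CoA synthetase of the bubblegum family, rose from -0.95, -1.01, -1.73 and -1.01 in DMSO to 0.22, 0.74, 0.11 and 0.08. The groups did not overlap, and the difference was 1.46 log2 (SE 0.248, 2.75-fold, limma adjusted p = 0.00355), and 0.85 with normexp, which also called it. Within slide 1 and slide 2 the difference was 1.75 and 1.48.

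The 4 genes called at 24 h with G-1 IC50 were not called at 72 h with this dose. *FASN* was at 5.91, 5.92, 6.19 and 5.90 in DMSO 72 h and at 6.07, 6.02, 6.30 and 5.99 with G-1 IC50, a difference of 0.12 (interval -0.27 to 0.50). *ACACA* differed by -0.01 (-0.15 to 0.12) and *FADS1* by 0.21 (-0.06 to 0.48). *ACSS2*, which had not passed at 24 h with this dose, differed by -0.01 (-0.38 to 0.36). *FADS2* kept non-overlapping groups, with 6.75, 6.64, 6.78 and 6.65 in DMSO and 7.18, 7.05, 7.15 and 7.02 with G-1 IC50. Its difference of 0.40 missed the threshold (limma adjusted p = 0.0955), and passed it with quantile normalization (0.42, adjusted p = 0.0375). *ACLY* replicate 4 lay at 3.38, below the other G-1 IC50 values of 4.24, 4.19 and 4.39.

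G-1 1 µM at 72 h called 4 of the 10 genes, 2 as higher and 2 as lower, whereas 66.1% of all tested genes were called, 35.2% as higher and 31% as lower. The share among the 10 was thus below that of the array. The groups did not overlap for 3 genes that were higher and 2 that were lower, as for 31.2% and 27.5% of all genes. *ACLY* rose from 4.06, 4.12, 4.08 and 4.04 to 5.29, 4.95, 5.19 and 5.10, by 1.06 log2 (SE 0.176, 2.08-fold, limma adjusted p = 2.65e-05). *FADS2*, at 7.28, 7.28, 7.29 and 7.16, rose by 0.55 (SE 0.104, limma adjusted p = 0.000109). By the brightest probe of each gene, these 2 were called as higher with G-1 1 µM at both durations.

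The brighter *ACACA* probe fell from 6.44, 6.49, 6.37 and 6.49 to 6.20, 6.12, 6.05 and 6.15. The groups did not overlap, and the difference was -0.32 log2 (SE 0.0655, 1.25-fold lower, limma adjusted p = 0.000246). *ACSBG1* was at -2.69, -3.78, -2.63 and -2.86, below every DMSO value, and was called as lower (limma adjusted p = 2.41e-06). Its probe was well above background on 1 of these 4 arrays and on all 20 arrays of the other 5 groups, so the size of the difference was not fixed. The fitted value was -1.81 log2 here and -0.66 with normexp background correction, which also called it.

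*FASN* was at 6.39, 6.41, 6.35 and 6.15 with G-1 1 µM at 72 h, where the lowest value lay below DMSO replicate 3 at 6.19, and the difference of 0.35 did not pass (limma adjusted p = 0.102). It passed in the fit on the 8 arrays alone (adjusted p = 0.0125). *FADS1* differed by 0.28 (limma adjusted p = 0.0666) without overlap, and passed on the 8 arrays alone (adjusted p = 0.00858) and with an intensity trend in the prior variance (adjusted p = 0.0477). *ACSS2* differed by 0.02 (interval -0.35 to 0.39). *SCD* and *ELOVL6* differed by -0.18 and -0.07, with intervals on both sides of 0. *ELOVL5* differed by 0.20 (limma adjusted p = 0.223). Its replicate 2 lay lowest, at 5.50, with replicates 1 and 3 at 6.14 and 6.18, and without that array the difference was 0.35 (adjusted p = 0.021).

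Between the doses at 72 h, 3 of the 10 genes were called, 1 as higher and 2 as lower, against 35.9% and 29.3% of all tested genes (65.1% in all). *ACLY* was higher with G-1 1 µM by 1.08 log2 (SE 0.176) and *ACACA* lower by its brighter probe, with -0.31 (SE 0.0655). *ACSBG1* was also lower (limma adjusted p = 8.93e-10), by a fitted -3.28 log2, or -1.52 with normexp, with the same limit of 1 array of 4 above background at the higher dose. At 72 h *ACSBG1* thus lay above DMSO with G-1 IC50 and below it with G-1 1 µM, whose arrays were all scanned in session 2. The other 7 genes differed by between -0.04 and 0.23.

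DMSO cells at 72 h and at 24 h were compared to describe time in culture without G-1. Called genes among the 10 numbered 0 in limma, against 3.34% of all tested genes. There was 1 at an unadjusted p under 0.05 and 0 by the methods' t-test with a fold change above 2, without a share of all genes for either. The differences lay between -0.37 (*FASN*, interval -0.75 to 0.01) and 0.49 (*ACSBG1*, interval -0.03 to 1.01). The groups of *ACLY* did not overlap, as for 8.44% of all genes in the same direction, with a difference of -0.35 (interval -0.72 to 0.01).

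Whether the response differed between durations was tested as the effect at 72 h minus the effect at 24 h. An offset between scan sessions that is constant cancels in this difference. With G-1 IC50 it was called for 1 of the 10 genes, *ACACA*, at -0.67 log2 (SE 0.0927, limma adjusted p = 0.00969), and for 0.014% of all tested genes, that is 2 genes. The other was *SREBF1*, which encodes an SREBP and was named after its values were seen (-0.85, adjusted p = 0.0162). *FASN* had a larger difference of -1.04 (SE 0.258) that did not pass (limma adjusted p = 0.415). The call of *ACACA* was lost at the 50th percentile (adjusted p = 0.445) and when dim probes were kept (adjusted p = 0.155). It rested on the brighter probe, since the dimmer *ACACA* probe gave -0.86 and did not pass (limma adjusted p = 0.12).

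With G-1 1 µM the effect was lower at 72 h for 6 of the 10 genes, against 17.7% of all tested genes called as lower and 34.1% in all. *FASN* (-1.04, SE 0.258, limma adjusted p = 0.00442), *ACACA* (-0.83, SE 0.0927, adjusted p = 1.75e-06) and *FADS1* (-0.78, SE 0.185, adjusted p = 0.0033) had risen at 24 h, and in the same fit did not pass as higher at 72 h. *ACSBG1* was called too (limma adjusted p = 4.35e-05), with a fitted value of -2.35, or -0.97 with normexp, that rests on its level near background at 72 h. *ACSS2* (-0.73, limma adjusted p = 0.0316) and *FADS2* (-0.39, adjusted p = 0.0494) were near the threshold.

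The call of *ACSS2* was lost without any 1 of 6 arrays: DMSO 24 h replicates 1 and 2, DMSO 72 h replicate 4, G-1 1 µM 24 h replicates 3 and 4 and G-1 1 µM 72 h replicate 1, with values between -0.71 and -0.57. It was also lost at the 50th percentile (adjusted p = 0.064), as was that of *FADS2* (0.136). That of *FADS2* was lost without any 1 of 12 of the 16 arrays and was kept without DMSO 24 h replicate 3 or 4 or G-1 1 µM 24 h replicate 1 or 2. Its values without 1 array lay between -0.46 and -0.31. *ELOVL6* (-0.55) was gained without G-1 1 µM 24 h replicate 2 (-0.72, adjusted p = 0.0472). *ACLY* was the only one of the 10 with a value above 0, 0.26 (interval -0.26 to 0.77).

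Of the 4 genes with 2 probes, 3 had both tested. For *ACACA*, the probes follow different RefSeq transcripts (NM_198834 and NM_198839) and parted at 72 h. The dimmer one was at 0.79, 0.77, 0.83 and 0.87 in DMSO, at 0.68, 0.84, 0.35 and 0.50 with G-1 IC50, and at 0.88, 1.21, 0.98 and 0.93 with G-1 1 µM. Its difference from DMSO at 1 µM was 0.19 (SE 0.119, limma adjusted p = 0.177), opposite in sign to that of the brighter probe. Between the doses it rose by 0.41 (SE 0.119, limma adjusted p = 0.00528), where the brighter probe fell by 0.31. The direction of *ACACA* at 72 h thus held for 1 probe only, whereas at 24 h both probes rose at both doses.

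For *ELOVL5*, the dimmer probe (NM_001242831) separated the doses more than the brighter one (NM_021814). With G-1 1 µM it was at 3.27, 2.97, 3.20 and 3.13 at 24 h and at 2.85, 2.84, 2.88 and 2.79 at 72 h. These values lay above every DMSO value of the same duration, which ran from 2.14 to 2.40 and from 2.21 to 2.35. The differences were 0.81 (SE 0.0862, limma adjusted p = 4.6e-06) and 0.56 (SE 0.0862, limma adjusted p = 1.14e-05). It was also higher than with G-1 IC50, by 0.49 at 24 h and 0.70 at 72 h, both called. Both *ELOVL6* probes follow the same transcript, and neither passed in any of the 4 comparisons with DMSO.

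**Figure D3:**
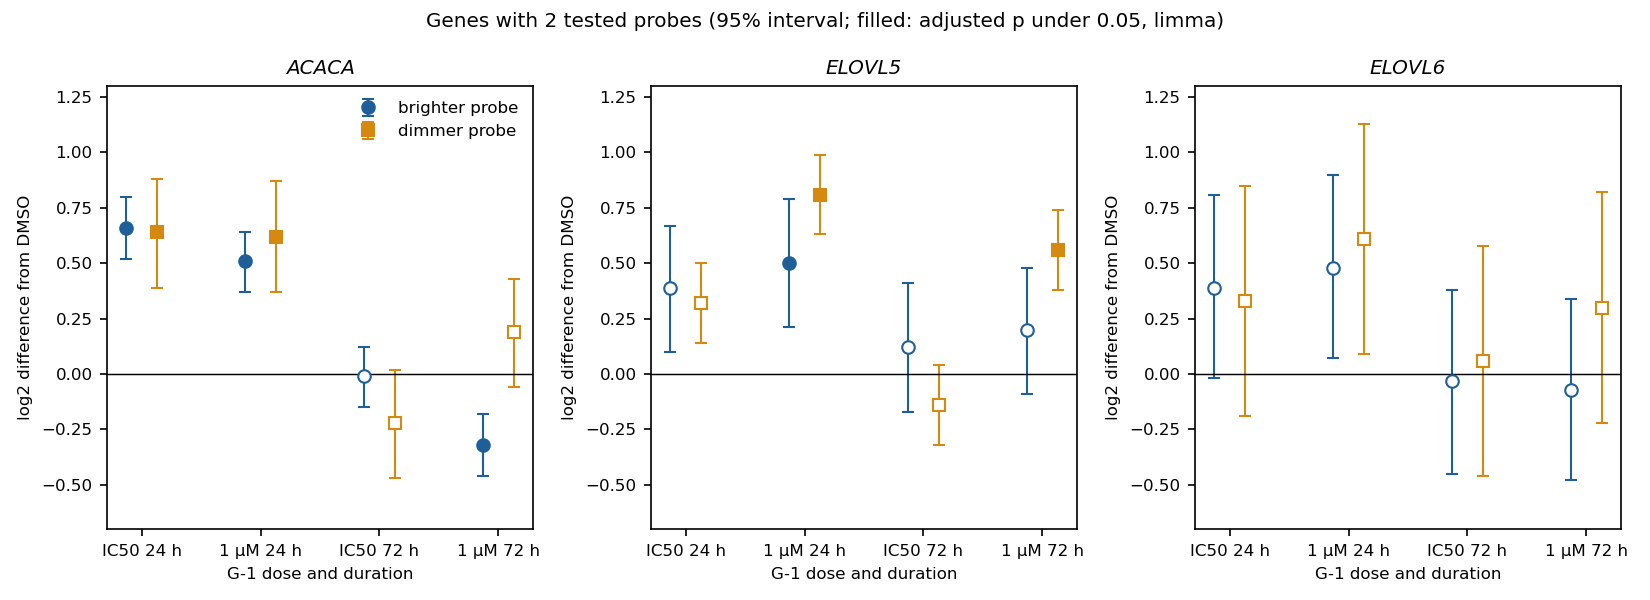
Log2 difference from DMSO (y axis, 95% interval) by dose and duration of G-1 (x axis) for the brighter and the dimmer probe of *ACACA*, *ELOVL5* and *ELOVL6*; filled points had a limma adjusted p under 0.05. The probes of *ACACA* lay on opposite sides of 0 with G-1 1 µM at 72 h, at -0.32 and 0.19.

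How the genes varied together was described within groups: each group mean was subtracted from its 4 arrays, and pairs of genes were correlated over the 24 arrays. Genes share RNA, labelling and scaling on each array. Over the 45 pairs, the median r was 0.44. *FASN* and *FADS2* had the highest value, 0.92, followed by *ACSS2* and *FADS1* with 0.88. Replicates of these genes that were high for one were thus high for the other. For *FADS1*, *ACSS2* and *ELOVL6*, replicates 3 and 4 were the higher ones in every group at 24 h. The 24 deviations are thus not independent of each other. *ELOVL6* had r of 0.87 with *FADS1*, 0.81 with *ACSS2* and 0.79 with *FASN*. *SCD* had a median r of 0.12 with the other 9 genes, and *ACSBG1* of 0.28.

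**Figure D4:**
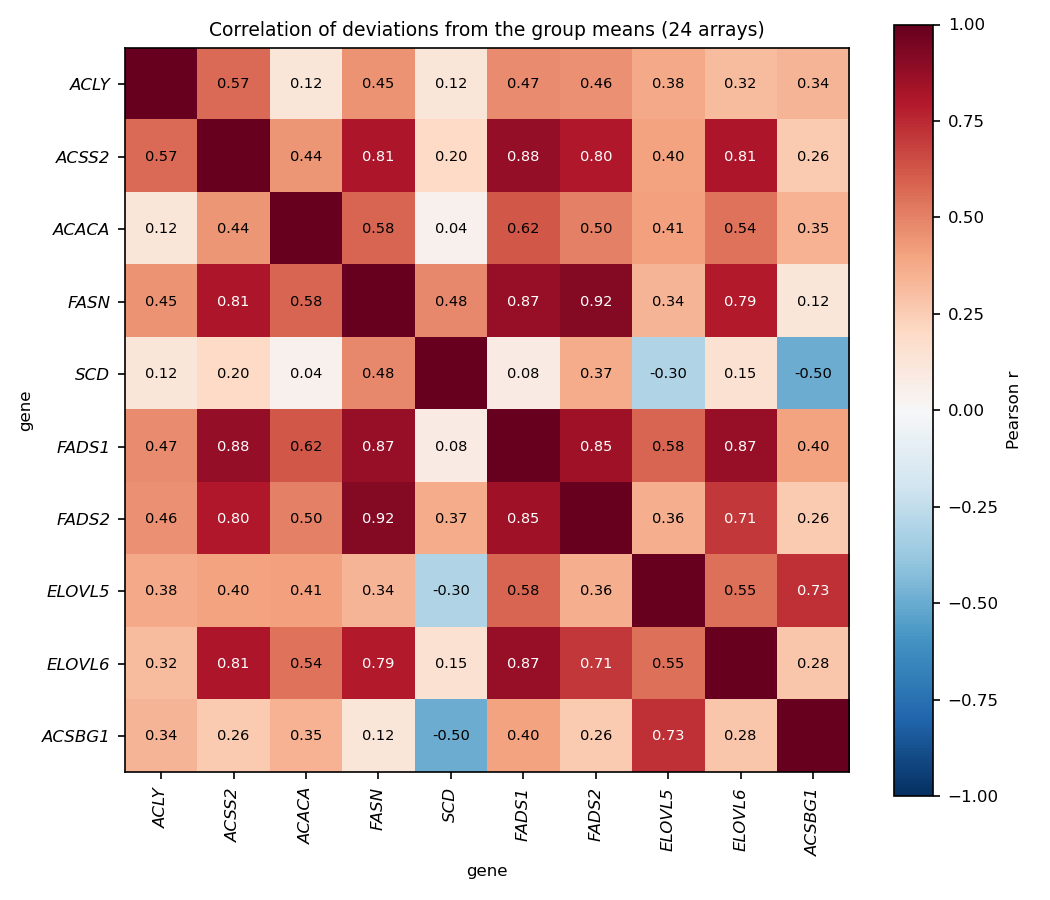
Pearson correlation, after subtracting group means, for each pair of the 10 genes (both axes list the genes; colour and number give r, over 24 arrays in 6 groups). The pairs of *FASN*, *FADS1*, *FADS2*, *ACSS2* and *ELOVL6* had r between 0.71 and 0.92, whereas *SCD* had values between -0.50 and 0.48.

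The genes outside the 10 whose levels over the 24 arrays were most like those of *FASN* were *LSS* (r = 0.969), *STARD4* (0.945), *HES6* (0.934), *INSIG1* (0.919) and *MVD* (0.911). *LSS* and *MVD* encode enzymes of sterol synthesis, and *INSIG1* a sterol-regulated brake on SREBP processing. For *ACLY* they were *FDPSP2*, *CARS1*, *AACS*, *FDFT1* and *SLC2A6*, with r between 0.909 and 0.918. *SCD* was most like *RNA5-8SN5* (0.822), *H4C12* (0.793) and *H2AC6* (0.771), a ribosomal RNA and 2 histone genes, followed by *LSM14B* and *ALG3*. *ACSBG1* was most like *PLPP1* (0.964), *SCRG1* (0.93), *EXTL1* (0.918), *DEPTOR* (0.90) and *SLAIN1* (0.895). These values include the differences between groups, and other genes move with the same groups.

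*SREBF1* rose at 24 h with G-1 IC50 by 1.02 log2 (SE 0.0897, limma adjusted p = 1.78e-06) and with G-1 1 µM by 0.85 (SE 0.0897). At 72 h with G-1 1 µM it fell by 0.73 (SE 0.0897, limma adjusted p = 6.45e-07), in the direction of the brighter *ACACA* probe. Over the 24 arrays its r was 0.97 with *ACACA*, 0.80 with *FASN* and 0.22 with *ACLY*. *INSIG1* rose with G-1 1 µM by 1.09 at 24 h and by 0.76 at 72 h (limma adjusted p = 0.00013 and 0.000495). Its r was 0.96 with *FADS2*, 0.94 with *FADS1*, 0.75 with *ACLY* and 0.68 with *ACACA*. Within groups, the r of *INSIG1* deviations was 0.83 with *FADS1* and 0.82 with *ELOVL6*. These r are descriptions over arrays of 6 groups.

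A list of 59 other genes of fatty acid synthesis in 8 roles was set beside the 10, and 50 of them were tested. With G-1 IC50 at 24 h, 4 of the 50 were higher and 0 lower in limma, against 0.218% and 0.0281% of all genes. At an unadjusted p under 0.05 these counts were 13 and 0, a threshold for which no share of all genes was computed. The 4 were *SREBF1*, *INSIG1*, *MID1IP1* (0.50 log2), which encodes an activator of acetyl-CoA carboxylase, and *ACSL3* (0.71), an acyl-CoA synthetase of lipid droplets and the endoplasmic reticulum. Other elongases, desaturases and mitochondrial synthesis genes gave 0 calls. The median of the 50 was 0.06, against 0.60 for the 10 enzymes above. Both sets were chosen with earlier results of these data known, so the medians do not show which part of the pathway responds more. At 72 h, 2 were higher, *ACSL3* (0.56) and *SLC27A3* (0.57), and 0 lower, against 0.906% of all genes called in either direction. At an unadjusted p under 0.05 the counts were 6 and 2, again without a share of all genes. *MID1IP1*, *ACSL3* and *SLC27A3* are named because the counts were small, after their values were seen.

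With G-1 1 µM at 24 h, 17 of the 50 were higher and 5 lower, when 30.6% of all genes were called. The 17 included 4 of 7 transcriptional regulators, and 3 of 6 genes of acetyl-CoA, NADPH and citrate supply. *INSIG1* alone exceeded a fold change of 2. At 72 h, 18 were higher and 17 lower, against 35.2% and 31% of all genes. Among acyl-CoA synthetases and fatty acid transport proteins, 4 of 11 were higher and 6 lower. *ACSL4*, a synthetase that prefers polyunsaturated fatty acids, rose by 1.16 log2 (SE 0.116, limma adjusted p = 3.61e-08). The transport proteins *SLC27A1* and *SLC27A6* each fell by 1.78. *ACSL6*, a synthetase of brain like *ACSBG1*, was also called as lower. Its mean level was -3.85 there and -2.33 in DMSO, so dim that the size of the fall is uncertain. *ACACB*, the carboxylase isoform of the mitochondrial surface, fell by 1.19 (SE 0.135, limma adjusted p = 2.02e-07), and *INSIG2* rose by 1.04. None of the 5 tested desaturases and electron donors outside the 10 was called at 24 h at either dose.

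**Figure D5:**
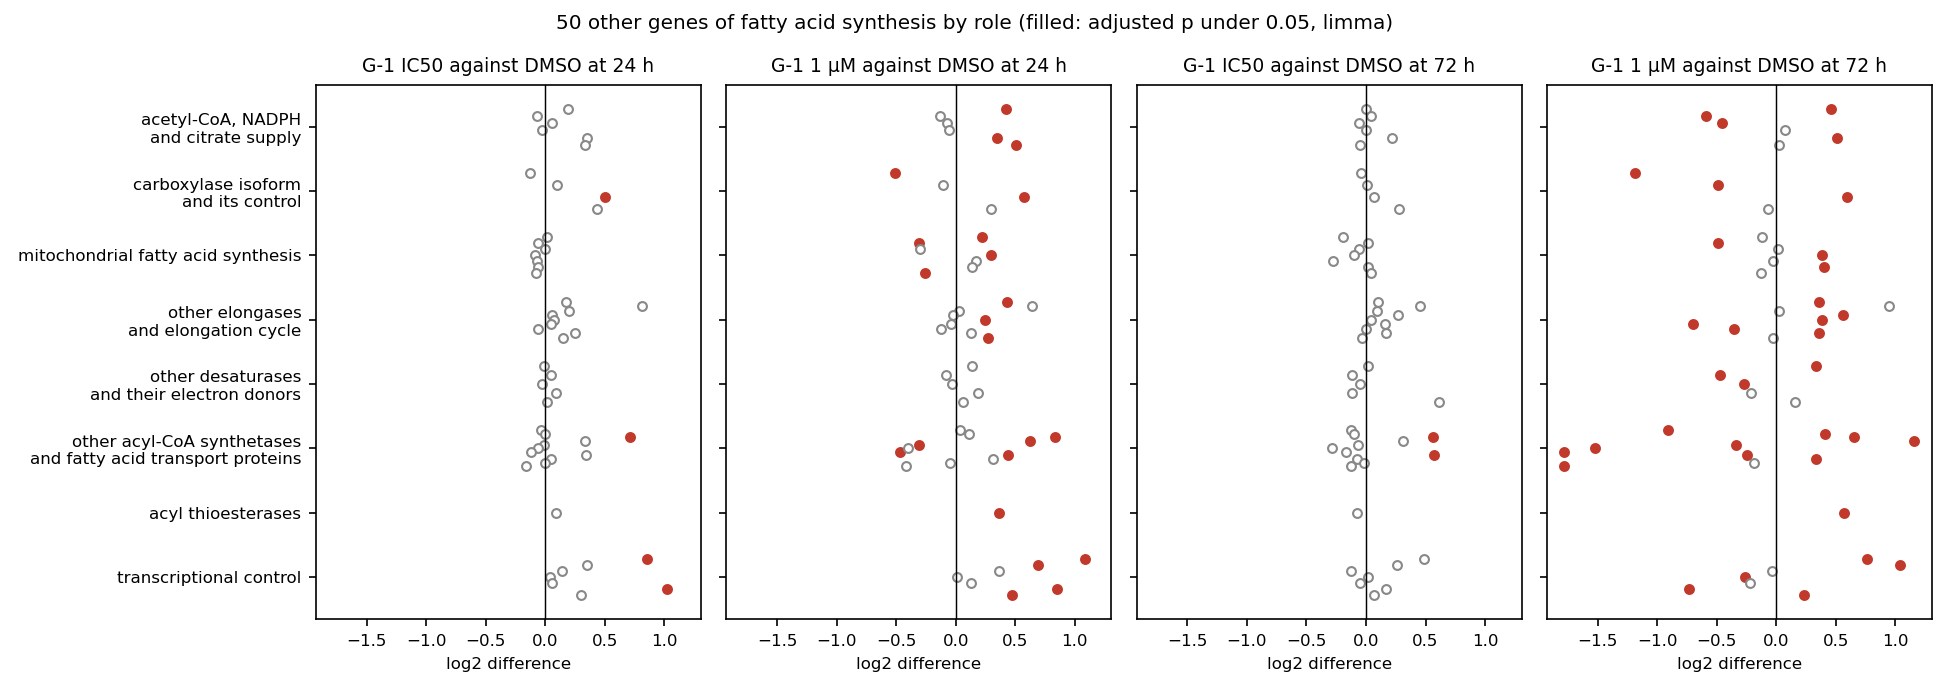
Log2 difference from DMSO (x axis) of the 50 tested genes of the list by role (y axis), 1 point per gene, for each dose and duration; filled points had a limma adjusted p under 0.05. Called genes numbered 4, 22, 2 and 35 from left to right, all 4 and all 2 of those with G-1 IC50 above 0.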

How the data were processed

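Total RNA of U251 cells was labelled with Cy3 and hybridized to 24 Agilent SurePrint G3 arrays. The authors deposited, per spot, background-subtracted intensity values from Feature Extraction (version 10.7.3.1 in the submitters' notes, 12.1.1.1 in the file headers), with 0 or 1 flags, and a log2 table per probe. That deposited log2 table equalled the values below after centring each probe on its median (largest difference 0.0106 over 58118 probes).

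Outlier spots were left out, spots of a probe averaged as log2 intensities, and the 75th percentile of each array subtracted. Probes had to exceed background (the deposited flag) on every array of at least 1 group; these 22970 were tested with limma 3.58.1 (R 4.3.3), with 6 group means over 24 arrays and Benjamini-Hochberg adjustment. Probes were named by matching their RefSeq accessions to symbols (35032 probes). The test was run on simulated arrays with independent noise around the mean of each probe, without slide, session or replicate effects. That run thus cannot speak to such effects in these data. The number of arrays limits the precision.

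The brightest tested probe stood for a gene, and others are given where they differ. Pathway genes were named when called with a fold change above 2, up to 4 per role, and the 5 genes most alike by Pearson correlation for 4 members. The pathway list, markers and motifs came from general knowledge. Members and lists were chosen with earlier results of these data known. Same-numbered arrays of the titles deviated together (every pair over 0.1) for G-1 1 µM against DMSO and against G-1 IC50 at 24 h. In the other comparisons not every pair did. For G-1 IC50 against DMSO at 72 h, for example, r ran from 0.05 to 0.48. Alternatives were other scalings, background corrections and filters, the deposited log2 table, fits on fewer arrays, an intensity trend, replicate and slide blocks, the t-test of the methods, a fold change threshold of 2, any probe of a gene, and leaving out each array. The session and the dose of 1 µM cannot be told apart at 1 duration.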

Additional observations from a re-analysis of the deposited data

Results flagged for a closer look

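In 4 of 60 groups of 4 arrays, 1 array lay apart from the other 3 by Dixon's test, when chance flags about 1 in 20 groups. *FASN* was high in DMSO 72 h replicate 3 (6.19, next value 5.92), and *ACSBG1* was high in G-1 IC50 24 h replicate 4 (-0.48, next value -0.95). *ACSBG1* was low in DMSO 72 h replicate 3 (-1.73, next value -1.01), and *FADS2* was low in G-1 1 µM 72 h replicate 4 (7.16, next value 7.28).

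The effect of G-1 differed between durations, by the interaction test of limma, for 7 pairs of gene and dose. With G-1 IC50 this was *ACACA* (-0.67 log2 at 72 h minus 24 h). With G-1 1 µM these were *ACSBG1* (-2.35), *FASN* (-1.04), *ACACA* (-0.83), *FADS1* (-0.78), *ACSS2* (-0.73) and *FADS2* (-0.39). The calls of *ACSS2* and *FADS2* were near the threshold, and leaving out any one of several arrays lost them. That of *FADS2* was also lost with normexp (limma adjusted p = 0.115) and with the deposited log2 table (limma adjusted p = 0.0506). The dimmer *ACACA* probe was called at neither dose, with -0.86 for G-1 IC50 (limma adjusted p = 0.12) and -0.44 for G-1 1 µM (adjusted p = 0.0531). What set these differences was not tested.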

How the results depend on the processing

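No alternative turned the sign of a call of the 10 genes, except that the dimmer *ACACA* probe was called as higher between the doses at 72 h (0.41) where the brighter one was lower. Of 1341 values, 1259 kept their side of the threshold (37 of these, not called, changed sign), 55 calls were lost and 27 gained. Without 1 array these were 856 of 880 (23 with another sign), 18 and 6. A fold change threshold of 2 beside the adjusted p left 1 gene with G-1 IC50 and 2 with G-1 1 µM against DMSO at 24 h, 2 with G-1 1 µM at 72 h, and 0 and 2 for the interactions with duration of G-1 IC50 and of the higher dose. The t-test of the methods with that threshold gave 1, 2 and 2 genes for those 3 comparisons before adjustment and 0, 2 and 2 after it, and 0 after it for G-1 IC50 at 72 h. Fits on the arrays of 1 comparison alone called 0 genes with G-1 IC50 at 24 h. For G-1 IC50 at 72 h the count of 1 became 2 with quantile normalization and with either replicate block, and 0 with only the probes above background throughout the 24 arrays, a filter that *ACSBG1* did not pass. Between the doses at 24 h the count of 0 became 1 with quantile normalization, with the 75th percentile of detected probes, with the 50th percentile, with normexp, with the replicate block within each duration, and with any tested probe. The interaction of G-1 IC50 with duration called 0 genes at the 50th percentile and when dim probes were kept, and 3 with the replicate block within each duration, which added *FASN* and *FADS1* (adjusted p = 0.0137 and 0.0101). That block also called *ACSS2* (limma adjusted p = 0.00946) and *ELOVL6* (0.016) with G-1 IC50 at 24 h. Over the tested probes, the numbers did not pair all arrays in that comparison (r between -0.11 and 0.39). For *ACSS2* and *ELOVL6* themselves, replicates 3 and 4 were the higher ones in both groups. Where the numbers did pair arrays, both at 24 h, the replicate block changed no call but that of *ELOVL6* with G-1 1 µM, and the block within each duration changed that and *FADS2* between the doses. The slide could not be fitted as a block for G-1 1 µM against another treatment at 1 duration, nor the replicate block within each duration for DMSO at 72 h against 24 h. The cause of these changes was not tested.

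Leaving out 1 array at a time gave counts from 4 to 4 (G-1 IC50) and 7 to 8 (G-1 1 µM) at 24 h, 1 to 1 and 4 to 5 at 72 h, 0 to 1 and 3 to 3 between the doses at 24 h and 72 h, 0 to 0 for DMSO over time, and 1 to 1 and 4 to 7 for the interactions. Scaling to the 50th percentile shifted the median of all probes to -0.132 and -0.137 log2 for G-1 1 µM against G-1 IC50 at 24 h and 72 h. Calls among probes for that comparison at 24 h were then higher in 17% of cases, against 62.2%, and at 72 h in 35.2%, against 52.9%. Levels near background, as for *ACSBG1* with G-1 1 µM at 72 h, were limited by signal.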
